A study of Mus musculus with 16 samples.

Results

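Abca1, App, Stat3, Ccnd1, Itch, Hif1a, Zbtb4, Txnip and Map3k2 have each been reported elsewhere as targets of the seed family of miR-17 and miR-106b, and their RNA was followed in cultured mouse cells that were given extra miR-106b and are labelled as juxtaglomerular (JG) cells, a label that the marker genes below go against. The 9 genes were chosen by name for those earlier reports, out of 46078 genes in the count table, and each has a single entry there. All 9 passed the filter on low counts, which left 14897 genes for the tests. JG cells are the renin-producing mural cells of the kidney's afferent arteriole. Per the labels, the cells used here had been engineered to express YFP from the renin promoter. They were transfected with miR-106b or with a non-mammalian microRNA precursor as control, and were harvested 48 h later. In each of 4 control and 4 miR-106b cultures polyadenylated RNA (polyA) was sequenced, and in another 4 and 4 cultures the RNA pulled down with Ago2 (Ago2-IP), so that every library is a culture of its own and the RNA kinds come from different cultures.

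MicroRNAs guide Argonaute proteins such as Ago2, the core of the RNA-induced silencing complex (RISC), to messenger RNAs. Pairing rests mainly on the seed, bases 2 to 8 of the microRNA, with sites in the 3′UTR, and it usually lowers the stability or translation of the message. A bound target can therefore become scarcer in total RNA and take a larger share of Ago2-bound RNA. The family is best known from the miR-17-92 cluster and its relatives, which favour proliferation and act on cell cycle inhibitors and on lipid efflux. Its mouse members share 1 seed, shown in capitals in the RefSeq mature sequences (GRCm38.p6), which is why a target of one of them is taken as a candidate for all:
miR-106b-5p: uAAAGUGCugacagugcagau
miR-93-5p: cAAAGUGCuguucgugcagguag
miR-17-5p: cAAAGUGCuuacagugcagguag
miR-20a-5p: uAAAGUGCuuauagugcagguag
miR-106a-5p: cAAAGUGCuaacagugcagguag
miR-20b-5p: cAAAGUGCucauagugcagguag
The libraries do not measure mature microRNAs. A single read in all 16 libraries fell on the Mir106b locus and 0 on Mir93, so the table offers no check of the transfection. Mcm7, the replication helicase subunit whose intron holds Mir106b, had a polyA log2 fold change of -1.49 (adjusted p = 0.00158).

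Libraries held 2579086 to 9459585 counts. The polyA miR-106b libraries were less like each other than those of the other groups, with median rank correlations to their own group of 0.950 to 0.968 against 0.968 to 0.993. Ren1, the defining gene of JG cells, had 0 counts in every library, which allows up to 0.317 CPM (CPM, counts scaled to library size) in the largest library and 1.16 CPM in the smallest, by counting error only. The 12 genes of the JG and mural list summed to 1655 to 2192 CPM in polyA RNA and to 1371 to 1476 CPM in Ago2-IP RNA, with smooth muscle and pericyte genes carrying the sum. Markers of other cells were present, so that the marker genes go against the label of the libraries as JG cells, and their identity is in doubt. The 25 cardiac muscle markers summed to 24898 to 35405 CPM in polyA control, to 48598 to 84137 CPM in polyA miR-106b and to 109271 to 120068 CPM in the Ago2-IP libraries. Of them 23 of 24 tested rose with miR-106b in polyA RNA, as did 5 of 10 tested JG and mural markers (1 fell), 8 of 8 endothelial, 8 of 8 macrophage and 8 of 8 fibroblast markers, while 12 of 12 proliferation markers fell. These shifts run through the polyA libraries in which the 9 genes were compared, and their part in the results was not tested.

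**Figure D1:**
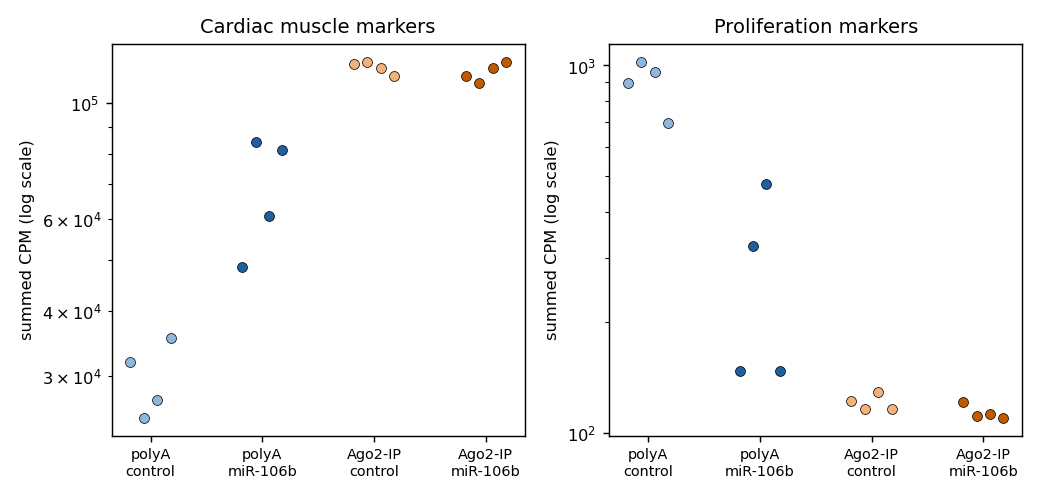
Summed CPM of 25 cardiac muscle markers (left) and 12 proliferation markers (right) on log axes, with 1 point per library and 4 libraries per group. The polyA miR-106b libraries lie between polyA control and Ago2-IP for both sums, at 48598 to 84137 and at 148 to 476 CPM.

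Each of the 9 genes carries a seed match to miR-106b-5p in its longest annotated 3′UTR (GENCODE M21, GRCm38). The searched letters, on the strand of the transcript, were GCACTTTA (8mer), GCACTTT (7mer-m8) and CACTTTA (7mer-A1), each site counted once in its longest form. The 9 genes hold 17 sites in all, 1 of them a 7mer-A1, and 4 genes hold an 8mer. Of 13215 tested genes with a 3′UTR, 14.8% have an 8mer or 7mer-m8 site, 4.56% have an 8mer and 22.2% have any of these. The 3′UTRs of the 9 genes are long, 1354 to 8403 bases with a median of 3156 where all tested genes have 1221. Among the 6099 tested genes with at least 1354 bases, 25.2% hold an 8mer or 7mer-m8. Seed matches are commonly the starting point of target reports, so that these sites are part of what the genes were chosen for. To show the letters that miR-106b can pair with, a site of each gene is given 5′ to 3′ with the match in capitals, the 8mer where there is one and otherwise the first 7mer-m8:
Abca1: cctcattccaaGCACTTTAtgctgtct
Txnip: tgatgttcttaGCACTTTAgcttgtca
Zbtb4: tcttgtttctgGCACTTTAgaaaaact
Ccnd1: tccatttcaaaGCACTTTtggtcagc
Itch: aactgatgaatGCACTTTgaccttct
Hif1a: tttggttttatGCACTTTgtcgctat
App: gttcatcataaGCACTTTtacgggtg
Stat3: gggcaatctggGCACTTTttaaaata

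In GRCm38 coordinates the Abca1 match lies on the minus strand at chr4:53031005-53031012, close to the end of its 3156-base 3′UTR. The Txnip 8mer is on the plus strand at chr3:96561241-96561248, and a 7mer-m8 follows at chr3:96561659-96561665 (actaagccttaGCACTTTgtcctgtg). Txnip has the shortest 3′UTR of the 9 genes and the most sites per length, 1.48 per kb. The Zbtb4 8mer lies on the plus strand at chr11:69781271-69781278 and is 1 of 3 sites. Those of Ccnd1 (chr7:144931676-144931682), App (chr16:84954596-84954602) and Stat3 (chr11:100888542-100888548, with a second at 100888295 to 100888301) are on the minus strand. The sites of Itch (chr2:155225568-155225574) and Hif1a (chr12:73946678-73946684) are on the plus strand. Map3k2 holds the most, 5 sites with 1 8mer in 8403 bases, which are not printed here.

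**Figure D2:**
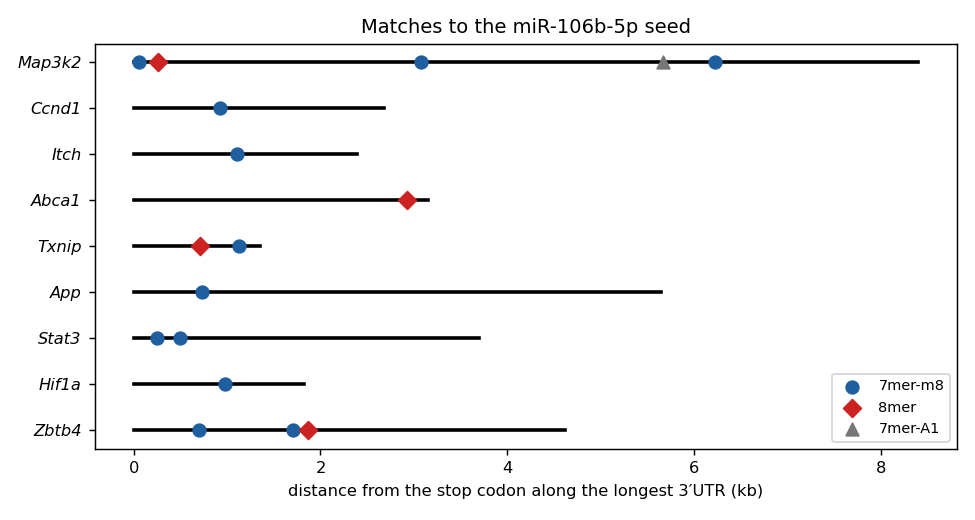
Position of each match to the miR-106b-5p seed along the longest 3′UTR of the 9 genes, in kb from the stop codon, with the length of the 3′UTR as a line. Map3k2 has 5 sites in the longest 3′UTR and Txnip 2 in the shortest.

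The first comparison asks what extra miR-106b did to the total polyadenylated RNA of these targets. Of the 9 genes, 2 fell (Map3k2 and Ccnd1), 2 rose (Abca1 and Txnip), and 5 did not pass the threshold (adjusted p under 0.05, quasi-likelihood F test of edgeR). Over all genes tested 21.5% fell and 19% rose, so that the counts for the 9 genes are near the background in both directions. The median log2 fold change was 0.17 for the 9 genes and -0.05 for all genes. The libraries of both groups did not overlap for these same 4 genes, where 38.3% of all genes had groups apart. Of all calls 47.0% were higher, and this share was 54.5% with DESeq2 size factors and 45.3% with library size only. It was 61.4% when all 16 libraries shared 1 fit, which changes the model as well as the scaling, and 59.8% and 60.1% without polyA control replicate 1 or 3. A fall or rise in a bulk sample can be less RNA per cell or fewer cells of a type, and these cannot be told apart here.

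**Figure D3:**
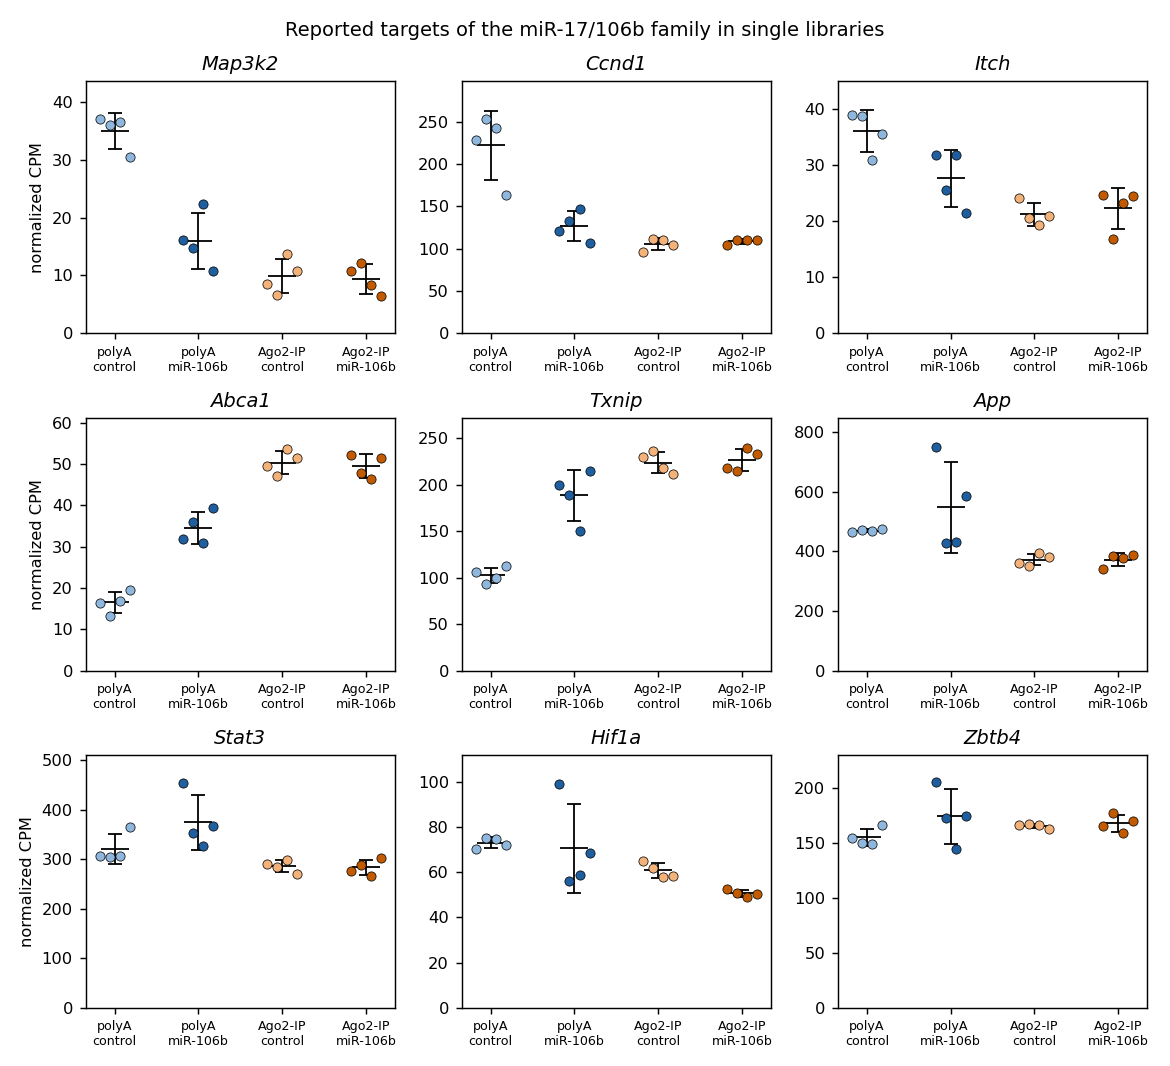
Normalized CPM of the 9 genes in each of 16 libraries, with the mean and SD of each group of 4 as bars. In polyA RNA the groups are apart for Map3k2, Ccnd1, Abca1 and Txnip, while in Ago2-IP RNA they overlap for every gene but Hif1a.

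Map3k2 (ENSMUSG00000024383, chromosome 18 from 32163088 to 32236751) encodes MEKK2, a kinase upstream of the ERK5 and JNK pathways. In polyA control it stood at 36.9, 35.9, 36.5 and 30.4 CPM in replicates 1 to 4, and with miR-106b at 16.1, 14.7, 22.3 and 10.7 CPM. All 4 miR-106b libraries were below all controls. The log2 fold change was -1.12 (SE 0.181, adjusted p = 0.000748), a level 2.17-fold lower, and 4.57% of all genes had a lower change. The smallest p that 4 against 4 libraries allow was reached in an exact permutation test (two-sided, p = 0.0286). Leaving out any 1 library kept the change between -1.31 and -0.99.

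Ccnd1 (ENSMUSG00000070348, chromosome 7 from 144929930 to 144939869) encodes cyclin D1, which with CDK4 or CDK6 drives cells past the G1 checkpoint. Its polyA level was 228, 254, 243 and 164 CPM in control and 121, 133, 147 and 107 CPM with miR-106b. Replicate 4 was the lowest of both groups, and the lowest control still exceeded the highest miR-106b library. The log2 fold change was -0.81 (SE 0.149, adjusted p = 0.00127; exact permutation p = 0.0286), a 1.75-fold lower level. The proliferation markers fell in the same libraries, from 699 to 1023 CPM in control to 148 to 476 CPM with miR-106b. PolyA miR-106b replicate 3, the highest of its group for Ccnd1, Map3k2 and Itch, also had the highest proliferation sum.

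Itch (ENSMUSG00000027598, chromosome 2 from 155133508 to 155226855) encodes an E3 ubiquitin ligase of the NEDD4 family. It lay at 39.0, 38.7, 31.0 and 35.6 CPM in control and at 31.8, 25.6, 31.9 and 21.5 CPM with miR-106b, with the groups overlapping. The log2 fold change of -0.37 (SE 0.147) missed the threshold (adjusted p = 0.0599 by edgeR; exact permutation p = 0.0857). Without polyA miR-106b replicate 3 the change was -0.44 and passed (adjusted p = 0.0398), as it did with a minimum of 10 counts in every library (0.0468) and in edgeR's likelihood ratio test (0.0304).

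Abca1 (ENSMUSG00000015243, chromosome 4 from 53030786 to 53159895) encodes the transporter that loads cholesterol onto apolipoprotein A-I. Its polyA level went from 16.4, 13.3, 16.9 and 19.5 CPM in control to 31.8, 36.1, 30.8 and 39.2 CPM with miR-106b, and the groups did not overlap. The log2 fold change was 1.06 (SE 0.150, adjusted p = 0.000676; exact permutation p = 0.0286), or 2.09-fold more, and 89.6% of all genes had a lower change. Abca1 thus rose, with an 8mer site in its 3′UTR. Leaving out single libraries gave 0.96 to 1.18.

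Txnip (ENSMUSG00000038393, chromosome 3 from 96557956 to 96561883) encodes an alpha-arrestin that binds thioredoxin and restrains glucose uptake. Control libraries held 106.1, 93.1, 99.7 and 112 CPM in polyA RNA and miR-106b libraries 200, 189, 150 and 214 CPM. The groups were apart, and the lowest miR-106b library was replicate 3. On the log2 scale the rise was 0.87 (SE 0.124, adjusted p = 0.000676; exact permutation p = 0.0286), which is 1.83-fold. Beside these rises, the cardiac marker sum was higher in every polyA miR-106b library than in every control.

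Stat3 (ENSMUSG00000004040, chromosome 11 from 100885097 to 100939540) encodes the transcription factor activated by IL-6 type cytokines. It was at 307, 304, 308 and 365 CPM in polyA control and at 455, 353, 326 and 367 CPM with miR-106b, with an overlap through control replicate 4. The log2 fold change was 0.23 (SE 0.126, adjusted p = 0.175), and it passed in DESeq2's Wald test (0.0487) and with all 16 libraries in 1 fit (0.00625). Hif1a (ENSMUSG00000021109, chromosome 12 from 73901374 to 73947530), the oxygen-regulated subunit of the hypoxia-inducible factor, was at 70.1, 75.1, 74.8 and 72.3 CPM in control and at 99.1, 56.1, 58.9 and 68.5 CPM with miR-106b. A single library, replicate 1, lay above the controls and the other 3 lay below them, for a log2 fold change of -0.04 (95% interval -0.39 to 0.30, adjusted p = 0.846). Zbtb4 (ENSMUSG00000018750, chromosome 11 from 69765911 to 69784023) encodes a zinc finger repressor that binds methylated CpG. Its values were 155, 150, 150 and 167 CPM in control and 206, 173, 144 and 175 CPM with miR-106b, and its log2 fold change was 0.17 (95% interval -0.09 to 0.42, adjusted p = 0.280).

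App (ENSMUSG00000022892, chromosome 16 from 84954439 to 85173707) encodes the amyloid precursor protein, a membrane protein cleaved by the secretases. Control libraries were close together at 464, 470, 468 and 476 CPM in polyA RNA, and the miR-106b libraries spread over 749, 427, 431 and 585 CPM. These lay on both sides of the controls. The log2 fold change was 0.22 (95% interval -0.14 to 0.58, adjusted p = 0.310). It was 0.11 to 0.33 with a library left out, and lowest without polyA miR-106b replicate 1. Replicate 1 of the polyA miR-106b group was the highest library for App, Stat3, Hif1a and Zbtb4 alike. The same library had the highest fibroblast sum, 27452 CPM against 14812 to 20294 CPM in the rest of its group, and the lowest cardiac sum. With all 16 libraries in 1 fit, App (0.35, adjusted p = 0.0316) and Zbtb4 (0.29, adjusted p = 0.0127) passed as well, which made 7 of 9 where 41.8% of all genes passed in that fit.

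Levels can be compared between genes only per length of merged exons. In polyA control Ccnd1 was the most abundant at 47.2 CPM per kb, followed by App (36.1), Stat3 (33.7), Txnip (32.9), Zbtb4 (19.1) and Hif1a (12.4). Itch (3.72), Map3k2 (2.50) and Abca1 (1.60) were well below these. In polyA miR-106b Txnip led the 9 genes at 60.3 CPM per kb, while Ccnd1 was at 26.9 and Map3k2, at 1.14, had become the lowest. Neighbours in the order such as Stat3 and Txnip were not tested against each other.

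The second comparison asks whether more of each message was bound to Ago2 in cells with extra miR-106b. None passed edgeR's test (0 of 9) in Ago2-IP RNA, with 1 gene below 0.05 before adjustment. Of all genes 0% passed, with 830 at an unadjusted p under 0.05. DESeq2's Wald test called 2 genes and edgeR's likelihood ratio test 18, with 0 of the 9 among them. The median log2 fold change was -0.0001 for the 9 genes and 0.0001 for all genes.

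Abca1 was at 49.5, 47.0, 53.5 and 51.3 CPM in Ago2-IP control and at 52.3, 47.8, 46.4 and 51.5 CPM with miR-106b (log2 fold change -0.03, 95% interval -0.22 to 0.17). Txnip was at 230, 236, 217 and 211 CPM in control and at 218, 215, 240 and 233 CPM with miR-106b (0.02, interval -0.09 to 0.12). For both genes the groups overlapped, and the interval leaves out a change of the size seen in polyA RNA. Ccnd1 stood at 96.2, 112, 110 and 104 CPM in control and at 104, 111, 110 and 111 CPM with miR-106b (0.05, interval -0.09 to 0.18). Map3k2 was near the lower end of what these libraries resolve, with 22 to 51 counts in a library, 8.54, 6.71, 13.7 and 10.7 CPM in control and 10.8, 12.2, 8.38 and 6.40 CPM with miR-106b. Its interval was the widest of the 9, from -0.55 to 0.39 around -0.08, and a change in Ago2-bound Map3k2 smaller than that was not detectable at this depth.

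Hif1a differed most among the 9 genes, in the direction of less RNA with Ago2. The libraries were at 65.2, 61.8, 58.1 and 58.5 CPM in control and at 52.6, 51.0, 49.0 and 50.4 CPM with miR-106b, with no overlap, which 3.26% of all genes showed. Its log2 fold change was -0.26 (interval -0.45 to -0.08), with p = 0.00627 before and 0.641 after adjustment by edgeR and an exact permutation p of 0.0286. This did not pass over all genes, and the adjusted p ranged from 0.322 to 0.9999 over the alternatives and from 0.417 to 0.998 with a library left out. App, Stat3, Zbtb4 and Itch had log2 fold changes from -0.01 to 0.06 with overlapping groups.

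**Figure D4:**
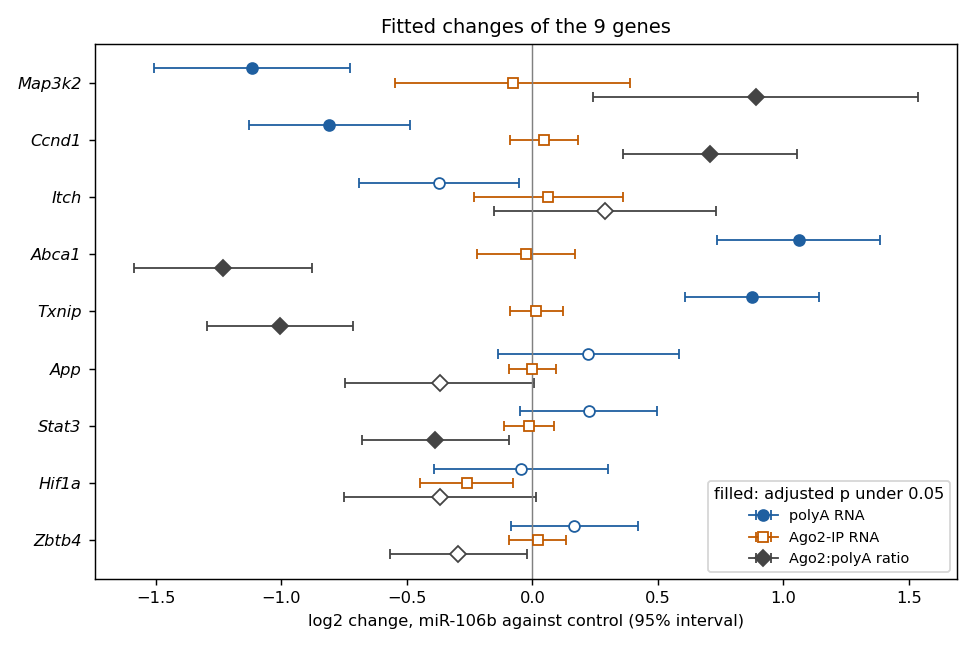
Fitted log2 change with miR-106b and its 95% interval for polyA RNA, Ago2-IP RNA and the Ago2:polyA ratio, with filled symbols for an adjusted p under 0.05. The Ago2-IP values lie between -0.26 and 0.06, and the ratio change, scaled over all 16 libraries, has the opposite sign to the polyA change for every gene but Hif1a.

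The study reads association with RISC as the Ago2:polyA ratio, and the third comparison asks whether miR-106b changed this ratio. The study selected genes by a minimum fold rise of the ratio, whereas calls here rest on an adjusted p under 0.05. The ratio rose for 2 of the 9 genes (Ccnd1 and Map3k2) and fell for 3 (Abca1, Txnip and Stat3) in the interaction test of edgeR. Among all genes tested 7.57% rose and 19.7% fell. In Ago2-IP RNA 0% of all genes passed, and these 5 genes changed there by -0.08 to 0.05. Their ratio changes therefore largely mirror the polyA changes with the sign turned, and are not a separate result about binding to Ago2. The share of higher calls depends on the scaling between RNA kinds, at 27.7% here, 46.3% with library size only and 44.9% with TMM within each RNA kind. The median change of all genes moved from -0.07 to 0.10 with library size only. Taken relative to that median, the change of each of the 9 genes differed by at most 0.0075 between 4 scalings. A scaling shifts all genes by nearly the same amount, so that this closeness was fixed in advance and is no check of the changes. The ratio fit scales all 16 libraries together, whereas the polyA and Ago2-IP fits are each scaled within their RNA kind, so that a ratio change here is not the Ago2-IP value less the polyA value given above. With TMM within each RNA kind the ratio changes were -1.09 for Abca1, -0.86 for Txnip, 0.85 for Ccnd1 and 1.04 for Map3k2, which all passed, and -0.24 for Stat3 (adjusted p = 0.206), which did not.

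Ccnd1 had a ratio of -0.77 (log2) in control cells and -0.06 with miR-106b, a rise of 0.71 (SE 0.167, adjusted p = 0.00252), or 0.78 over the median gene under both scalings. In the separate fits its polyA change was -0.81 and its Ago2-IP change 0.05. Map3k2, the gene with the most seed sites, went from -1.50 to -0.61, a rise of 0.89 (SE 0.313, adjusted p = 0.0368). That call held in all 8 alternative settings and was lost in 8 of the 16 fits without 1 library, at an adjusted p of up to 0.115, with a rise of 0.73 to 1.08 throughout. The separate fits gave it polyA and Ago2-IP changes of -1.12 and -0.08.

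Abca1 was the gene with the highest ratio of the 9 in control cells, 1.92, and it fell to 0.69, a change of -1.23 (SE 0.172, adjusted p = 2.24e-05). Txnip changed from 1.43 to 0.43, by -1.01 (SE 0.141, adjusted p = 2.28e-05). Both lost ratio with the microRNA while gaining polyA RNA, and both calls held in every alternative and every fit without 1 library, as did that of Ccnd1. Among markers tested, the ratio also fell for 23 of 24 cardiac muscle, 8 of 8 endothelial, 7 of 8 macrophage and 8 of 8 fibroblast genes. It fell for 6 of 10 JG and mural markers and rose for 5 of 12 proliferation markers. The part of these shifts in the ratios of the 9 genes was not tested. Stat3 went from 0.14 to -0.24 (change -0.39, SE 0.142, adjusted p = 0.0454). Its call was lost in 7 of 8 alternatives and in 11 of 16 fits without 1 library, and with library size only its change was -0.21 (adjusted p = 0.241) and its ratio in control cells -0.18.

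Itch had a ratio change of 0.29 (interval -0.15 to 0.73, adjusted p = 0.340), App of -0.37 (-0.75 to 0.01, adjusted p = 0.139), Hif1a of -0.37 (-0.75 to 0.02, adjusted p = 0.149) and Zbtb4 of -0.29 (-0.57 to -0.02, adjusted p = 0.101). These values rest on the scaling. With library size only they were 0.46 for Itch, -0.19 for App, -0.19 for Hif1a and -0.12 for Zbtb4, and with TMM within each RNA kind 0.44, -0.22, -0.22 and -0.15, and none of the 4 genes passed under either. App and Zbtb4 passed without polyA miR-106b replicate 3 (adjusted p = 0.0345 and 0.0153), and over the fits without 1 library App lay between -0.47 and -0.17 and Zbtb4 between -0.38 and -0.20. Over the same fits Itch lay between 0.19 and 0.41 and Hif1a between -0.45 and -0.14, and neither passed in any of them. For Hif1a the separate fits gave -0.26 with Ago2 and -0.04 in total polyA RNA, and neither passed.

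Whether other reported targets of the family moved alike was asked of a further list, of which 27 genes were tested. In polyA RNA 10 of them fell and 5 rose, where 21.5% of all genes fell and 19% rose, so that the rises are near the background. The median log2 fold change was -0.30 against -0.05 for all genes. Cdkn1a, the cell cycle inhibitor p21, went from 204 ± 16.9 to 135 ± 12.9 CPM (SD, n = 4 each; log2 fold change -0.60, adjusted p = 0.00128), and Smad7, an inhibitor of TGF-beta signalling, fell by 0.66 (adjusted p = 0.00138). Vegfa, the vascular growth factor, rose from 244 ± 18.7 to 425 ± 84.5 CPM, by 0.80 (adjusted p = 0.00108). None of them passed in Ago2-IP RNA (0 of 27, 1 below 0.05 before adjustment), and the ratio rose for 3 and fell for 5, where 7.57% of all genes rose and 19.7% fell, so that the falls are near the background. An 8mer or 7mer-m8 site was found in 23 of the 27 genes. Over all genes with such a site the median polyA change was -0.11 and that of genes with no site -0.03, and 25.3% against 22.8% fell while 17.8% against 21.1% rose. Median Ago2-IP changes were 0.0027 with a site and -0.0095 without. Genes with a site had longer 3′UTRs, with a median of 2566 against 959 bases. For the 602 genes with an 8mer the median polyA change was -0.10, and 23.4% fell while 16.9% rose.

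Genes that work with each of the 9 were read from lists of their pathway. The counts of these lists are to be read against the 21.5% of all genes that fell and the 19% that rose in polyA RNA, and a count near these shares says nothing particular about a list. In cholesterol efflux and its regulation by LXR, where Abca1 acts, 4 of 13 genes rose in polyA RNA and 5 fell. Apoe, the lipid carrier, rose by 1.26 and Nr1h3, which encodes the nuclear receptor LXR-alpha, by 1.31 (adjusted p = 0.000676 and 0.00108), and Abcg1, another cholesterol exporter, and Rxra, named after their values were seen, rose by 1.51 and 0.37. Srebf2, the transcription factor for cholesterol synthesis, fell by 0.97 (adjusted p = 0.00135), and Scarb1 and Srebf1, also named afterwards, fell by 0.76 and 0.37.

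Among 11 genes of the thioredoxin system and the alpha-arrestins 4 rose and 2 fell. Txn1, the thioredoxin that Txnip binds, fell from 148 ± 17.7 to 68.2 ± 15.8 CPM (log2 fold change -1.11, adjusted p = 0.000676), and its reductase Txnrd1 fell by 0.80 (adjusted p = 0.000676). Mlxipl, which encodes the glucose-responsive factor ChREBP, rose by 1.09 (adjusted p = 0.000867), and so did Arrdc4, Txn2 and Txnrd2 (0.87, 0.38 and 0.48, named afterwards). Reads of Txn1 may be shared with its processed pseudogenes.

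Around Ccnd1, 4 of 12 D cyclin partners fell and 0 rose. Cdk6 fell by 0.91 (adjusted p = 0.00309), the pocket protein gene Rbl1 fell by 1.01 (adjusted p = 0.00442), Cdkn1a fell as above and Cdk4, named afterwards, fell by 0.57. Of the 13 MAP3K2 cascade genes 1 passed, Mef2c, the transcription factor phosphorylated by ERK5, which rose by 1.20 (adjusted p = 0.00248). Map2k6 and Map3k4 had changes of -0.62 and 0.21 (adjusted p = 0.0669 and 0.0962). With DESeq2 size factors 2 genes of that list passed. The 12 others, which include every kinase of the list, did not pass here.

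Of 9 NEDD4 family ligases and adaptors tested, 3 fell and 1 rose. Smurf1 fell by 0.48 (adjusted p = 0.00283), Wwp2 fell by 0.41 (adjusted p = 0.00868) and Nedd4, named afterwards, fell by 0.50, while Hecw2 rose by 1.43 from 3.55 ± 1.45 CPM (adjusted p = 0.00606). Of 15 hypoxia factors, regulators and targets 7 rose and 2 fell, beside a Hif1a that did not pass. Epas1, the HIF-2 alpha subunit, rose from 214 ± 34.3 to 501 ± 143 CPM (log2 fold change 1.23, adjusted p = 0.000676), Pdk1, which restrains pyruvate entry into mitochondria, by 0.96 (adjusted p = 0.000716) and the prolyl hydroxylase Egln3 by 1.12 (adjusted p = 0.000863). Pgk1, a glycolytic enzyme whose reads may be shared with processed copies, fell by 0.76 and the glucose transporter Slc2a1 fell by 0.46, both named afterwards.

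In the JAK-STAT3 list 2 of 13 genes rose, no more than the background of 19%, among them the receptor Lifr by 0.41 (adjusted p = 0.0196), and 4 passed with DESeq2 size factors. Pias3, an inhibitor of STAT3, had a change of -0.28 (adjusted p = 0.0568). Of 13 genes of the APP family and its processing 4 rose, among them the adaptor Apbb1 by 0.74 (adjusted p = 0.00112), the sorting receptor Sorl1 by 1.13 (adjusted p = 0.00224) and the protease Bace2 by 1.09 (adjusted p = 0.0244), and Psen2, named afterwards, by 0.38. Of 9 methyl-CpG binding factors and ZBTB relatives 2 fell and 0 rose, and the falls are near the background of 21.5%. Uhrf1, a cofactor of maintenance methylation, fell by 1.72 (adjusted p = 0.00223) and Zbtb38 fell by 0.98 (adjusted p = 0.00234). No gene of these lists passed in Ago2-IP RNA (0 in each).

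**Figure D5:**
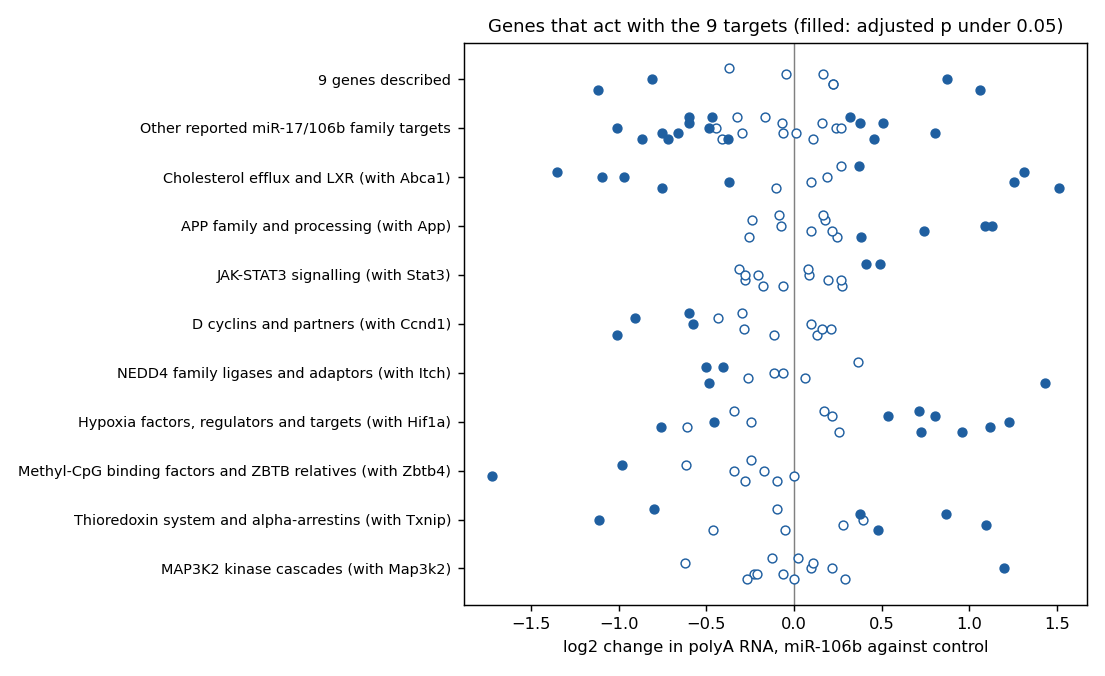
Log2 change with miR-106b in polyA RNA of the 9 genes and of the genes in each list, with filled points for an adjusted p under 0.05. Of the 10 lists beside the 9 genes, 5 hold calls in both directions, 3 hold rises alone and 2 falls alone, with 4 rises and 0 falls in the APP list and 4 falls and 0 rises among D cyclin partners.

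The genes whose level followed each of the 9 most closely over all 16 libraries were sought among the 10947 genes averaging 5 CPM or more, by Pearson's r of log2 CPM, a description in which the points share RNA kinds and transfections. Txnip was followed by Nfe2l1 (r = 0.996) and Bsg (0.995), and Abca1 by Ldhb (0.993) and Ndufb10 (0.992). Map3k2 was followed by Cramp1l (0.978) and Fzd5 (0.967), Ccnd1 by Hnrnpa2b1 (0.970) and Ybx3 (0.959), and Zbtb4 by Oat (0.969) and Col3a1 (0.967). For App (Rcn3 0.961, Lzts2 0.961), Stat3 (Cercam 0.931, B3gat3 0.926), Itch (Eif3m 0.893, Taf6 0.886) and Hif1a (Emc2 0.890, Adprh 0.865) the closest genes had r between 0.865 and 0.961.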

How the data were processed

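Transfected cells, labelled as JG cells, were sequenced as 16 libraries, 4 per group, grouped by the library titles. Per the labels and the study's methods, libraries were single-end and kept no strand, so that reads of overlapping genes on either strand cannot be told apart. Reads were aligned to GRCm38 with Tophat2 (version 2.1.1 in the methods, TopHat2 2.0.10 in the submitters' processing notes) and counted with HTSeq version 0.9.1. The values deposited by the authors are raw counts per gene. Genes with at least 1 CPM in at least 3 of 4 libraries of any group were kept, 14897 of 46078. They were compared in R 4.3.3 with edgeR 4.0.16 (TMM scaling, robust dispersion, two-sided quasi-likelihood F test, Benjamini-Hochberg over all genes tested, threshold 0.05). polyA and Ago2-IP libraries each had a fit of 8 libraries, and the ratio was the interaction of RNA kind and transfection in a fit of 16. SE and 95% intervals come from these fits, with a prior count of 0.125 for fold changes and 2 for log2 CPM. Normalized CPM were scaled by TMM within each RNA kind, and marker sums by library size only. Exact permutation tests used 70 relabellings. DESeq2 1.42.0 was an alternative.

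The 9 genes and all lists (the pathway lists, and markers of JG and mural, cardiac muscle, endothelial, macrophage, kidney epithelial, fibroblast and proliferating cells) were chosen with earlier results of these data known. Named are all 9 genes, from each pathway list the 3 genes tested with the smallest adjusted p in polyA RNA, and the 2 genes most like each of the 9. A few genes of the lists are counted but not reported here by name. Replicate numbers did not pair libraries (r -0.52 to 0.38, 2 of 16 pairs over 0.1). In simulated counts for 14897 genes, 194 of 200 genes with a 3-fold change were recovered in polyA RNA (15 false calls), 196 in Ago2-IP RNA (10 false) and 161 in the ratio (9 false). The changes were put into better-counted genes only, and for the ratio into the Ago2-IP libraries. Changes below 3-fold, as all those of the 9 genes were, were not simulated, so that recovery of such changes is not known. Sequences are from RefSeq and GENCODE M21. Counts of reads without molecular identifiers carry counting error only in the limits given. Alternatives were DESeq2 size factors, library size only, no filter, at least 10 counts in every library, the Wald test of DESeq2, the likelihood ratio test of edgeR, a replicate block, other groupings of libraries in the fit and leaving out each library.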

Additional observations from a re-analysis of the deposited data

Results flagged for a closer look

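Dixon's test at the 95% level marked 3 of 36 groups of 4 libraries as holding a library apart, where chance marks about 1 in 20. These were Stat3 at 365 CPM in polyA control replicate 4, Map3k2 at 30.4 CPM in the same library and Ccnd1 at 104 CPM in Ago2-IP miR-106b replicate 1. Stat3 was high and Map3k2 low in that polyA control library, which also had the highest cardiac and the lowest proliferation sum of its group.

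The change with miR-106b differed between the RNA kinds for 5 of the 9 genes by the interaction test of edgeR, where 27.3% of all genes passed. It is given as the change of the Ago2:polyA ratio on the log2 scale with TMM over all 16 libraries. It was -1.23 for Abca1, -1.01 for Txnip and -0.39 for Stat3, and 0.71 for Ccnd1 and 0.89 for Map3k2. With TMM within each RNA kind it was -1.09, -0.86, -0.24, 0.85 and 1.04 in the same order, and Stat3 did not pass (adjusted p = 0.206). The Map3k2 call held in 8 of 16 fits without 1 library. In the separate fit of the Ago2-IP libraries the change of each of these genes was between -0.08 and 0.05.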

How the results depend on the processing

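The polyA calls of Abca1, Txnip, Ccnd1 and Map3k2 and the ratio calls of Abca1, Txnip and Ccnd1 held in every alternative and every fit without 1 library. In polyA RNA 7 of the 9 genes passed with all 16 libraries in 1 fit, where 41.8% of all genes did, and 4 to 5 with a library left out, where 29.1% to 45.1% of all genes did. The ratio count was 3 to 7 with a library left out (22.7% to 32.5% of all genes), 3 without polyA control replicate 1, 2 or 3, without Ago2-IP control replicate 1 or 2 and without Ago2-IP miR-106b replicate 1 or 2, and 7 without polyA miR-106b replicate 3. In Ago2-IP RNA 0 of the 9 passed anywhere, and over all genes 0 to 20 passed in the alternatives and 0 to 39 without 1 library, the most without Ago2-IP miR-106b replicate 4. With a replicate block, 5504 genes passed in polyA RNA, with 4 of the 9 genes among them, and 3895 in the ratio, with 4 of the 9 (Stat3 lost). The block changed no other call of the 9. Changes near 0 turned sign, and the cause was not tested. Hif1a in polyA RNA was 0.017 with DESeq2 size factors and in DESeq2's Wald test and 0.082 with all 16 libraries, and -0.18 to 0.054 without 1 library. App in Ago2-IP RNA was 0.0024 with DESeq2 size factors, 0.0081 with at least 10 counts, 0.0049 in DESeq2's Wald test and 0.00013 in the likelihood ratio test. Zbtb4 and Txnip in Ago2-IP RNA were -0.00048 and -0.0048 with all 16 libraries. Without 1 library the Ago2-IP change was -0.057 to 0.0072 for Abca1, -0.028 to 0.041 for App, -0.049 to 0.015 for Stat3, -0.0055 to 0.046 for Zbtb4, -0.012 to 0.043 for Txnip and -0.24 to 0.11 for Map3k2. With library size only, the ratio in control cells was -0.18 for Stat3 and -0.28 for Hif1a, and that of Zbtb4 with miR-106b was -0.039. Depth limits Map3k2 most, at 22 to 51 counts in Ago2-IP libraries.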

Other observations

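Mean levels of the 3 groups polyA control, polyA miR-106b and Ago2-IP control can be set in order for each gene, an order looked at after the values were seen. With TMM over 16 libraries, polyA miR-106b lay between the other two for 6 of the 9 genes (Abca1, Ccnd1, Itch, Zbtb4, Txnip and Map3k2). The same held for 73.6% of all genes tested. Abca1 stood at 14.6, 33.2 and 55.0 CPM in this order, Txnip at 90.7, 181 and 244 CPM, Ccnd1 at 196, 122 and 115 CPM and Map3k2 at 30.9, 15.4 and 10.8 CPM. With TMM within each RNA kind the order held for 6 genes as well, with Hif1a in place of Zbtb4, and for 75.9% of all genes. The summed cardiac and proliferation markers followed that order too.

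The kidney epithelial markers differed between the RNA kinds, with summed levels of 119 to 277 CPM in polyA RNA and 1.43 to 16.8 CPM in Ago2-IP RNA. Cdh16, a cadherin of kidney tubules, made up most of the polyA sum, with a mean of 163 ± 57.2 CPM in control libraries against 166 ± 39.5 CPM after miR-106b (SD, n = 4 each), and was at 2.79 and 6.16 CPM in Ago2-IP RNA. Of 2 kidney epithelial markers that passed the filter, Lrp2, the receptor megalin, fell with miR-106b in polyA RNA by 1.07 on the log2 scale (adjusted p = 0.0443, edgeR) and Cdh16 had a change of 0.02.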
